A study of Mus musculus with 6 samples.

Results

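Genes that mark leukocytes and the presentation of antigen were examined in the uterus of intact female mice at 2 weeks of age, on 3 Affymetrix arrays labelled Arid1a d/d and 3 labelled Arid1a f/f. The list named 40 genes, and a gene was taken up where the platform annotation gave a probe set its symbol and no other. This held for 30 genes with 51 probe sets, out of 16813 genes and 41420 probe sets in all. Cd14, C1qa, Cd163, Aif1, Fcer1g, Cd3g, Cd79a, Cd79b, Gzma and Gzmb were not analysed here. Each gene was read from its brightest probe set, and all levels are log2 intensities after the authors' RMA normalization.

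Arid1a is part of the SWI/SNF complex, which remodels chromatin, and the title of the study concerns its need in the development of endometrial glands. By the usual notation d is a deleted and f a floxed allele. A Cre driver, the strain and whether animals were pooled are not given in the sources used here. Arid1a stood at 6.98, 7.06 and 7.04 on the d/d arrays, against 7.54, 7.58 and 7.71 on the f/f arrays (log2 difference -0.58 ± 0.09 SE, limma adjusted p = 0.0260 over genes). The groups did not overlap, but the deleted part of the gene is not given, and whether the probe set lies within it was not tested. With d/d 1 left out the Arid1a call held (0.0232), and with any other single array left out its difference stayed between -0.62 and -0.53 while the adjusted p was 0.0689 to 0.111. Hoxa11, a homeobox gene of the uterine mesenchyme, averaged 7.13 ± 0.13 in d/d and 7.55 ± 0.12 in f/f (SD, n = 3 each). This uterine marker was thus present in both groups, but it was lower in d/d without overlap (log2 difference -0.42 ± 0.11 SE, limma adjusted p = 0.132).

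The juvenile uterus holds resident macrophages and smaller numbers of granulocytes and lymphocytes between its epithelium, stroma and muscle. Macrophages and dendritic cells display peptides of ingested protein on MHC class II molecules, which are assembled from an alpha and a beta chain with the help of the invariant chain. T helper cells read these complexes, while MHC class I molecules on nearly all cells present peptides from the cell's own cytosol. In whole uteri, fewer cells of a type and less RNA per cell cannot be told apart.

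The d/d 1 array stood apart from the other d/d arrays. Over all probe sets d/d 1 correlated at 0.9946 with f/f 1, 0.991 with f/f 2 and 0.9911 with f/f 3, but at 0.9901 with d/d 2 and 0.9905 with d/d 3. The correlation between d/d 2 and d/d 3 was 0.9953. Where leaving out d/d 1 changed the call of a gene named below, its value without d/d 1 is given too.

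None of the 30 genes passed the threshold of an adjusted p of 0.05 over all genes, in either direction, by limma on all 6 arrays. Across the array 1.14% of genes passed, 0.630% higher and 0.512% lower in d/d. At an unadjusted p under 0.05, 4 of the 30 genes were past it (13.3%), 1 higher and 3 lower in d/d, where 12.2% of all genes were, 5.29% higher and 6.88% lower. Groups that did not overlap were found for 5 of the 30 (16.7%), against 16.5% of all genes, so neither share set the leukocyte genes apart. The direction was less even: 24 of the 30 (80%) had a lower mean in d/d, against 53.4% of all genes. The median log2 difference of the 30 was -0.15, against -0.01 over all genes. With array weights 1 gene of the 30 passed as higher, where 1.15% of all genes did, and when a gene's probe sets were averaged 1 passed, where 0.589% did. At a threshold of 0.10 it was 1 gene as well, where 1.18% of all genes passed as higher. In each case the gene was Cd68.

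**Figure D1:**
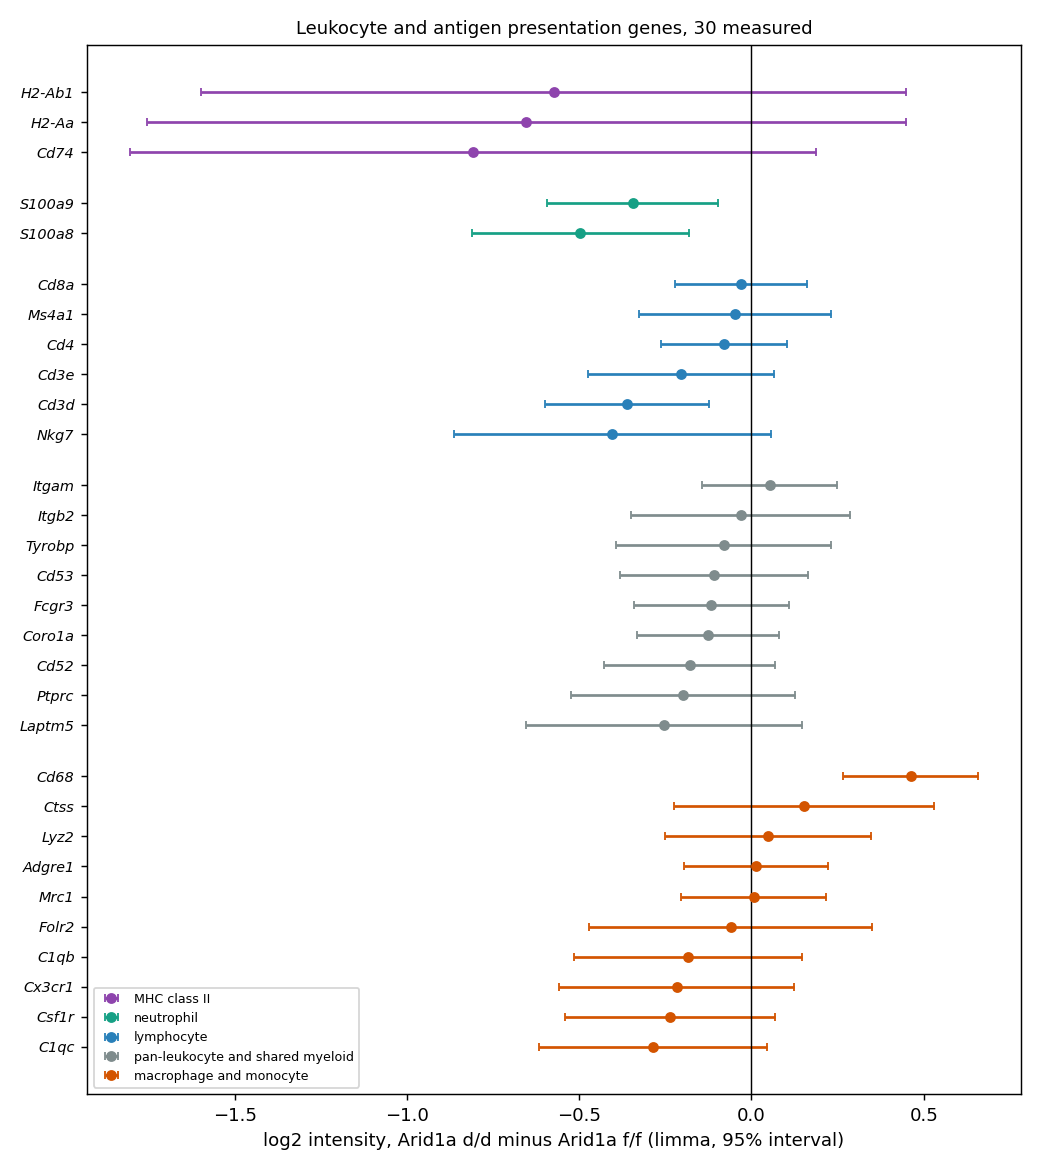
Log2 difference, Arid1a d/d minus Arid1a f/f, of the 30 measured genes by role, with points for the limma estimate and bars for its 95% interval (3 arrays per genotype). The MHC class II genes had the widest intervals, Cd68 was the gene with an interval wholly above 0, and S100a8, S100a9 and Cd3d had intervals wholly below 0.

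The MHC class II genes held the largest mean differences of the list and also the widest spread between arrays of 1 genotype. H2-Aa, the alpha chain of the I-A molecule, stood at 8.09, 6.31 and 6.18 on d/d 1, 2 and 3, against 7.86, 7.496 and 7.18 on f/f 1, 2 and 3. H2-Ab1, its beta chain, stood at 7.002, 5.30 and 5.26 on d/d 1, 2 and 3, against 6.71, 6.47 and 6.11 on f/f 1, 2 and 3. Cd74, the invariant chain that escorts both, stood at 5.21, 3.53 and 3.51 on d/d 1, 2 and 3, against 5.16, 4.91 and 4.61 on f/f 1, 2 and 3. For each of these genes d/d 1 was the highest of the 6 arrays and d/d 2 and d/d 3 were the lowest, so the groups overlapped. Within f/f, the array numbered 1 was likewise the highest for each of them.

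The log2 difference was -0.65 ± 0.47 for H2-Aa, -0.57 ± 0.44 for H2-Ab1 and -0.81 ± 0.43 for Cd74 (SE, limma adjusted p of 0.683, 0.7004 and 0.532). The 95% intervals ran from -1.75 to 0.45, from -1.60 to 0.45 and from -1.80 to 0.19, so both signs lay within each interval. The SD within d/d was 1.07, 0.99 and 0.97, larger than that of 99.5% of genes for H2-Ab1, with a median over all genes of 0.12. Within f/f the SD was 0.34, 0.30 and 0.27.

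Leaving out each array in turn changed these calls for 1 array. Without d/d 1 the log2 differences were -1.27 for H2-Aa, -1.15 for H2-Ab1 and -1.37 for Cd74, with limma adjusted p of 0.00914, 0.00903 and 0.0041. In that fit 3 of the 30 genes passed, all of them MHC class II and all lower, where 2.93% of all genes passed as lower. Without any other single array the 3 did not pass, with log2 differences between -0.95 and -0.28. Without both arrays numbered 1 they passed too, with -1.09, -1.01 and -1.24 (adjusted p of 0.0132, 0.0165 and 0.00846), as did S100a8, so that 4 of the 30 genes passed as lower, where 1.90% of all genes did. The call of the MHC class II genes therefore rests on whether d/d 1 is counted.

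Their other probe sets showed the same order of arrays. H2-Aa has 4 probe sets, with log2 differences of -0.65, -0.49, -0.39 and -0.21, and H2-Ab1 has 3, with -0.67, -0.57 and -0.47. In all 7 the d/d 1 array was above d/d 2 and d/d 3. Probe sets with the suffix _x_at or _s_at can also pick up related transcripts, and all 4 of H2-Aa have such a suffix.

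The promoter of H2-Aa is shown with that of H2-DMb2, a chain of the peptide loading molecule H2-DM, because class II genes share a control element just before the start site. Its Y box core is ATTGG, bound by NF-Y, and a site of the cAMP response element type, TGACGTCA, lies ahead of it in some class II genes. Both strings of letters were searched on both strands in the 150 bases before the start site, they do not overlap each other, and matches are in capitals (RefSeq, GRCm38.p6). The H2-Aa stretch is chr17:34287824-34287973 on the minus strand and that of H2-DMb2 is chr17:34145099-34145248 on the plus strand.
H2-Aa: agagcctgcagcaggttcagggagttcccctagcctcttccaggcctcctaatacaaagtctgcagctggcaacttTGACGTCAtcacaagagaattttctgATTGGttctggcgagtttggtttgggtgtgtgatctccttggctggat
H2-DMb2: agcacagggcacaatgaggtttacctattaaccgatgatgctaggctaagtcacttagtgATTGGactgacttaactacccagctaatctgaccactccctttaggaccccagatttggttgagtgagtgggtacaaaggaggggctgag
The Y box core began 48 bases before the start site in H2-Aa and 90 bases before it in H2-DMb2, and TGACGTCA began 74 bases before it in H2-Aa. Of 32851 RefSeq promoter windows of this length, 24.5% held the Y box core, 1.36% held TGACGTCA and 0.371% held both. A match is a description of the letters and not evidence of binding.

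Of 14 further genes of the class II pathway that were measured, 0 passed the threshold, with a median log2 difference of -0.07. Marchf1, a membrane ubiquitin ligase that draws class II molecules from the cell surface, stood at 1.98, 3.70 and 3.55 on d/d 1, 2 and 3, against 1.65, 2.19 and 1.95 on f/f 1, 2 and 3. The d/d 2 and d/d 3 arrays, lowest for the class II genes, were the highest here (log2 difference 1.15 ± 0.42 SE, limma adjusted p = 0.318). With d/d 1 left out its adjusted p was 0.00247. All f/f arrays and d/d 1 lay below 2.69, the median log2 intensity over probe sets, so that the size of the difference is limited by background. The other 2 probe sets of Marchf1 gave -0.10 and 0.12 and lay below 2.69 on every array.

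H2-DMa, the alpha chain of H2-DM, stood at 3.63, 2.94 and 2.85 on d/d 1, 2 and 3, against 3.63, 3.44 and 3.49 on f/f 1, 2 and 3. The d/d 2 and d/d 3 arrays were again the lowest (log2 difference -0.38 ± 0.20 SE). Its limma adjusted p was 0.519, and with d/d 1 left out the difference was -0.63 with an adjusted p of 0.0171. H2-DMb2 stood at 2.93, 2.45 and 2.62 on d/d, against 2.94, 2.88 and 2.64 on f/f. Ciita, the transactivator on which class II transcription depends, had a log2 difference of 0.02 ± 0.11 (SE) but lay below 2.69 on all 6 arrays. Rfxap and Rfxank, subunits of the RFX complex that binds class II promoters, had -0.29 and 0.25 (limma adjusted p of 0.461 and 0.464). Rfxank has 3 probe sets, and those not read here went the other way, with -0.26, without overlap, and -0.14.

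**Figure D2:**
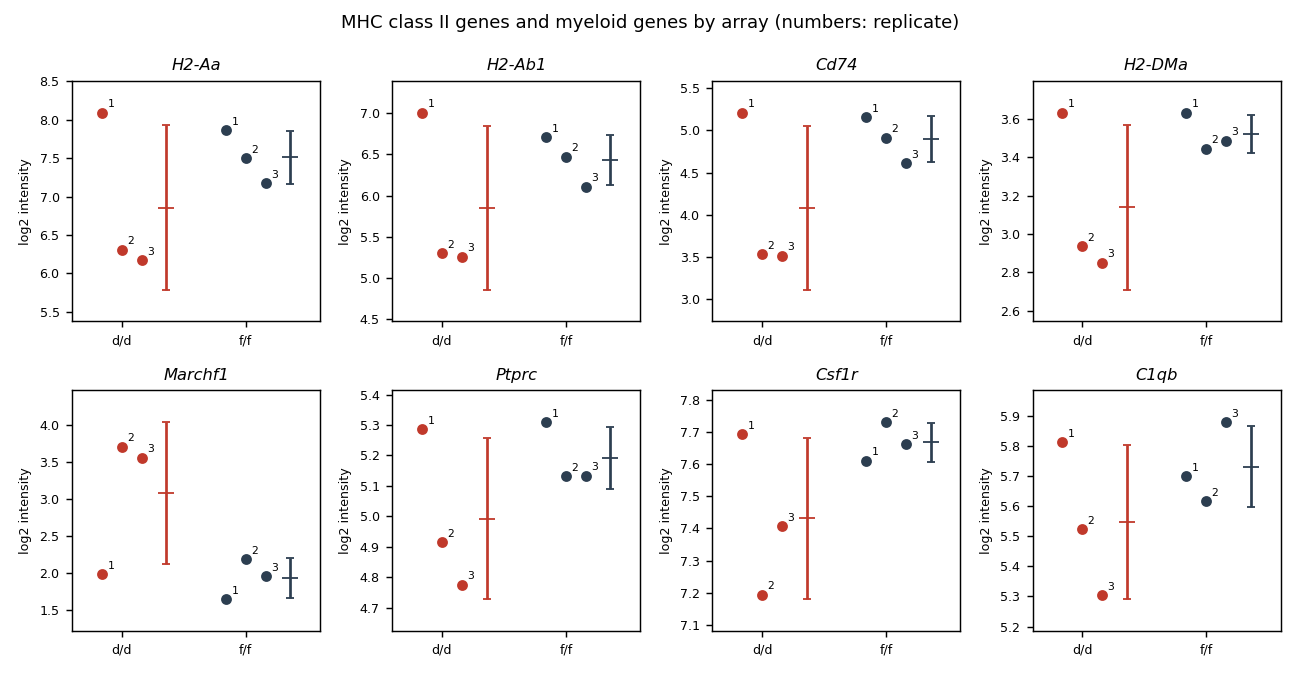
Log2 intensity of 8 genes on each array, with d/d left and f/f right, replicate numbers beside the points, and bars for the mean ± SD of 3 arrays (each panel has its own axis, which does not start at 0). H2-Aa, H2-Ab1, Cd74 and H2-DMa were lowest on d/d 2 and d/d 3 and Marchf1 was highest there, while the axes of Ptprc, Csf1r and C1qb span less than 1 log2 unit.

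The macrophage and monocyte genes of the list had no common direction between the genotypes, with log2 differences from -0.29 to 0.46. The 10 measured genes had a median log2 difference of -0.03, which ran from -0.10 to 0.01 over the alternatives, and 5 had a higher and 5 a lower mean in d/d. Their mean level per array was 5.48, 5.27 and 5.35 on d/d 1, 2 and 3, against 5.38, 5.37 and 5.44 on f/f 1, 2 and 3. The mean of the 3 MHC class II genes minus that of the 10 macrophage genes was 1.28, -0.22 and -0.36 on d/d 1, 2 and 3, against 1.20, 0.92 and 0.53 on f/f 1, 2 and 3. The class II genes were thus lower on d/d 2 and d/d 3 relative to the macrophage genes of the same arrays.

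Cd68, a lysosomal membrane protein of macrophages, came nearest to the threshold. It stood at 4.36, 4.25 and 4.35 on the d/d arrays, against 3.78, 3.92 and 3.87 on the f/f arrays. All d/d arrays lay above all f/f arrays (log2 difference 0.46 ± 0.08 SE, 1.38-fold, limma adjusted p = 0.0543). Over the alternatives its difference stayed between 0.40 and 0.50, with adjusted p from 0.0377 with array weights to 0.192 without d/d 3.

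No other macrophage gene of the list came near the threshold. C1qb and C1qc, chains of the complement recogniser C1q that tissue macrophages make, had log2 differences of -0.18 ± 0.14 and -0.29 ± 0.14 (SE). C1qc stood at 4.66, 4.22 and 4.51 on the d/d arrays, against 4.62, 4.67 and 4.96 on the f/f arrays. C1qb stood at 5.81, 5.52 and 5.30 on the d/d arrays, against 5.70, 5.62 and 5.88 on the f/f arrays. Both overlapped between genotypes.

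Csf1r, the receptor on which macrophage survival depends, stood at 7.69, 7.19 and 7.41 on the d/d arrays, against 7.61, 7.73 and 7.66 on the f/f arrays (-0.24 ± 0.13 SE, limma adjusted p = 0.561). Its 3 probe sets gave -0.24, -0.29 and -0.33, and in the last of them the genotypes did not overlap, with d/d lower. Cx3cr1, the fractalkine receptor, stood at 4.66, 4.13 and 4.47 on the d/d arrays, against 4.79, 4.55 and 4.57 on the f/f arrays (-0.22 ± 0.15 SE).

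Lyz2, the macrophage and granulocyte lysozyme, stood at 6.89, 7.35 and 7.06 on the d/d arrays, against 7.09, 6.96 and 7.11 on the f/f arrays, a difference of 0.05 ± 0.13 (SE). Adgre1, the F4/80 antigen, Mrc1, the mannose receptor, and Folr2, a folate receptor of resident macrophages, had log2 differences of 0.01, 0.01 and -0.06. Their 95% intervals were -0.20 to 0.22, -0.21 to 0.22 and -0.47 to 0.35. Ctss, the protease that trims the invariant chain, had 0.15, with an interval from -0.22 to 0.53.

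Among 25 further macrophage and monocyte genes measured, 1 passed as higher and 0 as lower, with a median of -0.09. A lower mean in d/d was found for 19 of the 25, against 53.4% of all genes. At an unadjusted limma p under 0.05 there were 6 lower and 1 higher, where 6.88% of all genes were lower and 5.29% higher. The gene that passed was Lgals3, which encodes galectin-3, a lectin made by macrophages and also by epithelia. It stood at 8.51, 8.72 and 8.58 on the d/d arrays, against 7.71, 7.76 and 7.52 on the f/f arrays. Lgals3 rose 1.92-fold in d/d, with groups far apart (log2 difference 0.94 ± 0.10 SE, limma adjusted p = 0.0104). Its adjusted p came just over the threshold when d/d 2 (0.0517), d/d 3 (0.0533), f/f 2 (0.0572) or f/f 3 (0.0512) was left out.

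The epithelial list was also higher in d/d. All 5 measured epithelial genes had a higher mean in d/d, with a median of 0.62, and 1 passed. This was Cdh1, the gene of E-cadherin, which rose in d/d (log2 difference 1.00 ± 0.15 SE, adjusted p = 0.0314 by limma). The call of Cdh1 held without d/d 1 and was lost when d/d 2 (0.0581), d/d 3 (0.0869), f/f 1 (0.0745), f/f 2 (0.151) or f/f 3 (0.135) was left out. The mean level of the list was 8.60, 8.89 and 8.69 on d/d 1, 2 and 3, against 8.13, 8.22 and 8.05 on f/f 1, 2 and 3. For the simple-epithelial keratins Krt18 and Krt8 the log2 differences were 0.62 and 0.61 (limma adjusted p of 0.0582 and 0.0686), and without d/d 1 both passed (0.64 and 0.73, adjusted p of 0.0366 and 0.00951). Their part in the values of Lgals3 and Cd68 was not tested.

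Ncf1, a subunit of the phagocyte oxidase, stood at 2.72, 2.74 and 2.76 on the d/d arrays, against 3.19, 3.05 and 3.21 on the f/f arrays (-0.41 ± 0.08 SE, limma adjusted p = 0.0773). The groups did not overlap, but its other 2 probe sets, below 2.69 in both genotypes, gave 0.0045 and -0.08. Clec10a, a lectin of macrophages and dendritic cells, had -0.39 (limma adjusted p = 0.246), and its values were below 2.69 on all arrays but f/f 3. Apoe, the apolipoprotein of macrophages and many other cells, stood at 8.47, 7.32 and 7.60 on d/d 1, 2 and 3, against 8.86, 8.47 and 8.33 on f/f 1, 2 and 3. It overlapped (-0.76 ± 0.29 SE, limma adjusted p = 0.333), and without d/d 1 it passed (-1.10, adjusted p = 0.0116). Csf2rb, the shared receptor chain for GM-CSF, IL-3 and IL-5, had -0.52 ± 0.18 (SE, limma adjusted p = 0.2805), and -0.70 with 0.0375 without d/d 1. Without d/d 1, 3 of the 25 genes passed as lower and 1 as higher, where 2.93% of all genes passed as lower and 1.95% as higher.

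Pan-leukocyte and shared myeloid genes had a median log2 difference of -0.12 over 9 measured genes, of which 8 had a lower mean in d/d and 0 passed. Ptprc, the CD45 phosphatase of all leukocytes, stood at 5.29, 4.92 and 4.78 on the d/d arrays, against 5.31, 5.13 and 5.13 on the f/f arrays. The groups overlapped (-0.20 ± 0.14 SE, 95% interval -0.52 to 0.13, limma adjusted p = 0.666).

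Cd52, a small glycoprotein of lymphocytes and monocytes, stood at 5.90, 5.66 and 5.72 on the d/d arrays, against 5.80, 5.93 and 6.07 on the f/f arrays (-0.18 ± 0.11 SE). Coro1a, an actin regulator of blood cells, stood at 3.39, 3.38 and 3.28 on the d/d arrays, against 3.49, 3.38 and 3.56 on the f/f arrays (-0.13 ± 0.09 SE). Both overlapped. Itgam and Itgb2, the chains of the integrin Mac-1, had 0.05 and -0.03, and Itgam lay below 2.69 on all arrays. Tyrobp, a signalling adapter, Fcgr3, an IgG receptor, and Cd53, a tetraspanin, had -0.08, -0.12 and -0.11.

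Laptm5, a lysosomal protein of blood cells, was the gene of the list whose probe sets differed most. The brightest of its 4 probe sets stood at 5.77, 5.34 and 5.16 on the d/d arrays, against 5.85, 5.46 and 5.73 on the f/f arrays (-0.25 ± 0.17 SE). Another stood at 4.64, 4.07 and 4.51 on the d/d arrays, against 5.07, 5.81 and 6.19 on the f/f arrays, without overlap (-1.28 ± 0.27 SE, limma adjusted p = 0.112 over probe sets). The remaining pair gave -0.19 and -0.13. Of the 4, the probe set with the large difference had the largest SD within f/f, 0.57, and what it detects beyond the others was not tested.

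The 2 neutrophil genes of the list were dim and lower in every d/d array than in any f/f array. S100a8 and S100a9 encode the chains of calprotectin, an abundant protein of neutrophils. S100a8 stood at 1.69, 1.74 and 1.82 on the d/d arrays, against 1.97, 2.49 and 2.29 on the f/f arrays (-0.50 ± 0.14 SE, limma adjusted p = 0.168). S100a9 stood at 2.13, 2.20 and 2.27 on the d/d arrays, against 2.46, 2.74 and 2.44 on the f/f arrays (-0.34 ± 0.11 SE, limma adjusted p = 0.232). All of these values but that of S100a9 on f/f 2 lay below 2.69, where background limits the fold, and neither gene passed.

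Without both arrays numbered 1, S100a8 had -0.60 with a limma adjusted p of 0.0479. Of 7 further neutrophil genes measured, 0 passed, with a median of -0.04. Elane, the neutrophil elastase, had -0.22, Mmp8, the neutrophil collagenase, -0.16 and Mmp9, a gelatinase, 0.22. The mean of these 7 per array was 2.84, 2.54 and 2.49 on d/d 1, 2 and 3, against 2.62, 2.68 and 2.54 on f/f 1, 2 and 3, with overlap.

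All 6 measured lymphocyte genes had a lower mean in d/d, with a median of -0.14, and 0 passed. Cd3d, a chain of the T cell receptor complex, stood at 2.91, 2.81 and 2.83 on the d/d arrays, against 3.32, 3.28 and 3.03 on the f/f arrays. The groups did not overlap (-0.36 ± 0.10 SE, limma adjusted p = 0.181, and 0.117 to 0.537 with 1 array left out). Cd3e, its partner chain, stood at 2.73, 2.73 and 2.67 on the d/d arrays, against 2.68, 2.99 and 3.07 on the f/f arrays, with overlap (-0.20 ± 0.12 SE).

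Nkg7, a granule protein of natural killer and cytotoxic T cells, stood at 2.93, 3.20 and 3.00 on the d/d arrays, against 2.97, 3.67 and 3.71 on the f/f arrays (-0.40 ± 0.20 SE, limma adjusted p = 0.490). Here f/f 1 lay among the d/d arrays. Cd4, the helper T cell co-receptor that macrophages can also carry, stood at 3.39, 3.44 and 3.38 on the d/d arrays, against 3.47, 3.53 and 3.45 on the f/f arrays. These groups did not overlap, but the difference was -0.08 ± 0.08 (SE). Cd8a and Ms4a1, the CD8 alpha chain and the B cell antigen CD20, had -0.03 and -0.05, and Ms4a1 lay below 2.69 on all arrays. The values of Cd8a, from 2.62 to 2.75, and those of Cd3e in d/d lay close to 2.69. Cd8a has 5 probe sets, and those not read here gave -0.06, -0.08, 0.09 and 0.17. The last was higher in d/d without overlap, but all of these lay below 2.69 in both genotypes.

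Of 18 further lymphocyte genes measured, 0 passed, with a median of -0.05. Ighm, the heavy chain of IgM, stood at 3.96, 3.75 and 4.23 on the d/d arrays, against 4.97, 4.05 and 4.55 on the f/f arrays (-0.54 ± 0.23 SE, limma adjusted p = 0.401). It has 11 probe sets, and their mean gave -0.14 (limma adjusted p = 0.511). Klrd1, a natural killer receptor chain, had -0.29 and Cd247, a T cell receptor chain, 0.19. Of the genes of red cells and platelets 4 were measured, 0 passed, the median was -0.14, and Hba-a1 and Alas2, of red cells, had -0.17 and -0.37. Hba-a1 lay below 2.69 on all arrays, and the difference of Alas2 was 0.01 without f/f 1.

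**Figure D3:**
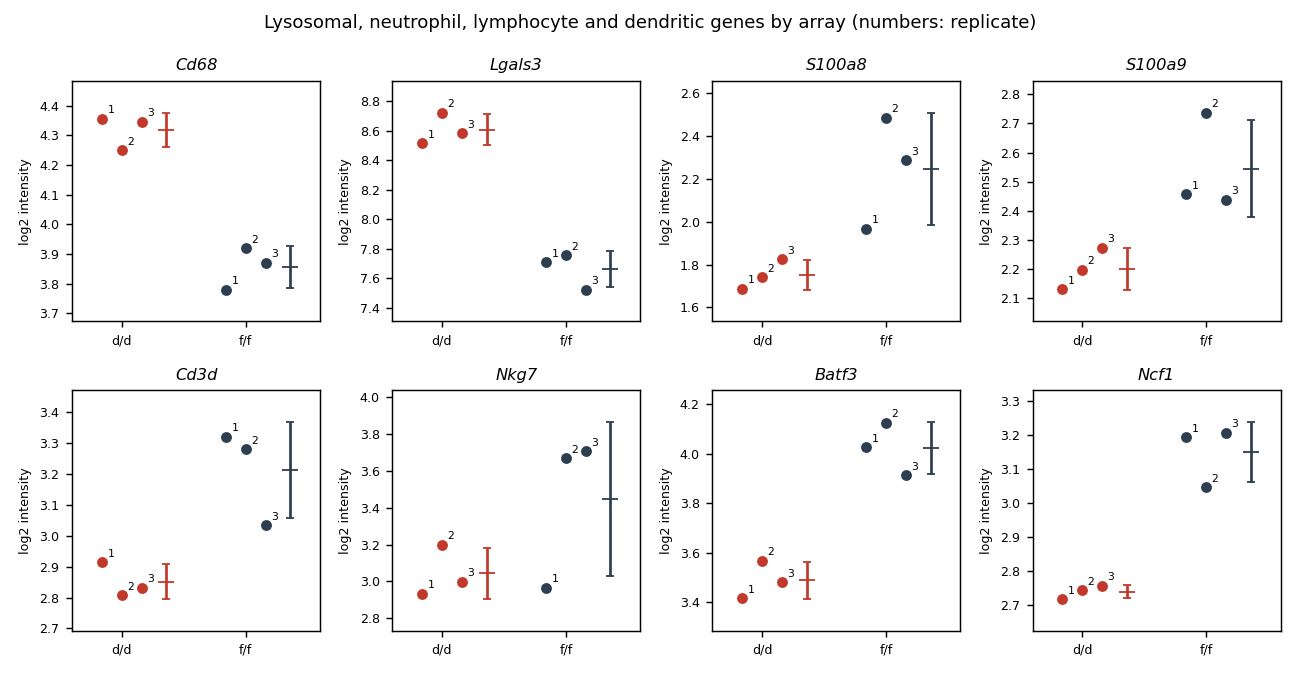
Log2 intensity of 8 genes on each array, with d/d left and f/f right, replicate numbers beside the points, and bars for the mean ± SD of 3 arrays (each panel has its own axis, which does not start at 0). Cd68 and Lgals3 lay higher on every d/d array than on any f/f array, and S100a8, S100a9, Cd3d, Batf3 and Ncf1 lay lower, while Nkg7 overlapped.

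Among 9 dendritic cell genes measured, 0 rose and 1 fell, with a median of -0.10. Batf3, a transcription factor of cross-presenting dendritic cells, stood at 3.42, 3.57 and 3.48 on the d/d arrays, against 4.03, 4.12 and 3.91 on the f/f arrays. Batf3 fell, with groups that did not overlap and a log2 difference of -0.53 ± 0.09 SE (adjusted p = 0.0468 by limma). Its adjusted p was 0.0612 over probe sets, 0.0691 with a variance trend on intensity and robust fitting, and up to 0.176 with 1 array left out: leaving out d/d 1 kept the call (0.0408) and leaving out any other single array ended it, as did leaving out both arrays numbered 1 (0.0881). Itgae, the CD103 integrin chain, had -0.30, and Zbtb46, another dendritic cell factor also made by endothelium, -0.33. Of the 9 genes, 6 had a lower and 3 a higher mean in d/d. The higher ones were Flt3 at 0.09, Xcr1 at 0.03 and Siglech at 0.02, all with overlap, and Xcr1 and Siglech lay below 2.69 on all arrays.

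Of 14 eosinophil and mast cell genes 0 passed, with a median of -0.01. Kit, the stem cell factor receptor of mast cells and of other cell types, stood at 4.52, 3.995 and 4.09 on the d/d arrays, against 5.52, 4.99 and 5.02 on the f/f arrays (-0.98 ± 0.19 SE, limma adjusted p = 0.0596). The groups did not overlap, and Kit passed as lower with an intensity trend (0.0460), with array weights (0.0248), without d/d 1 (-1.14, adjusted p = 0.00939) and without both arrays numbered 1 (0.00884). Cpa3, the mast cell carboxypeptidase, went the other way. It stood at 3.50, 3.44 and 3.40 on the d/d arrays, against 3.15, 3.10 and 3.39 on the f/f arrays, without overlap (0.23 ± 0.10 SE, limma adjusted p = 0.418). Gata2, a transcription factor of mast cells and of uterine stroma, had -0.35. Of the 14 genes, 7 had a higher and 7 a lower mean in d/d. Of 20 growth factors and chemokines that recruit myeloid cells 0 passed, with a median of -0.01. Csf3, the granulocyte growth factor, stood at 5.76, 5.77 and 5.24 on the d/d arrays, against 4.70, 5.09 and 4.57 on the f/f arrays, without overlap (0.80 ± 0.19 SE, limma adjusted p = 0.108). Cxcl12, a chemokine of stroma and endothelium, had -0.82 ± 0.28 (SE, limma adjusted p = 0.282), and -1.16 with an adjusted p of 0.00766 without d/d 1, while Cxcl1, a neutrophil attractant, had -0.19.

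Genes of the MHC class I pathway, 14 measured, had a median of -0.02 and 0 passed. H2-K1, a classical class I heavy chain, stood at 8.61, 8.17 and 8.22 on the d/d arrays, against 8.68, 8.87 and 8.77 on the f/f arrays. The groups did not overlap (-0.44 ± 0.13 SE, limma adjusted p = 0.209), and its 4 probe sets ranged from -0.54 to -0.10. Without d/d 1 it passed as lower (-0.57, adjusted p = 0.0219), as it did without both arrays numbered 1 (-0.62, adjusted p = 0.0322). Another H2-K1 probe set, at a mean of 8.40 in d/d and 8.62 in f/f, gave -0.22 with overlap. H2-D1, the other classical chain, had -0.29 and Psmb8, an immunoproteasome subunit, -0.25. Of the 14 genes, 7 had a higher and 7 a lower mean in d/d. Among the higher ones, Pdia3 had 0.11 without overlap and Tap1, below 2.69 on all arrays, 0.14. All 4 probe sets of H2-K1, and that read for H2-D1, have the suffix _x_at and can also pick up related transcripts.

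An unadjusted limma p under 0.05, which 12.2% of all genes had, was also counted in each list. There were 1 of 14 in the class II pathway (higher), 2 of 14 in the class I pathway (lower), 2 of 20 among growth factors and chemokines (1 in each direction), and 1 of 14 among eosinophil and mast cell genes (lower). There was 1 of 18 among the further lymphocyte genes (lower), 0 of 7 among the further neutrophil genes and 0 of 4 among the blood genes. Of the dendritic cell genes 2 of 9 were past it (lower), of the further macrophage genes 7 of 25 (6 lower), of the epithelial genes 4 of 5 (higher) and of the stromal genes 4 of 8 (lower). Among the listed leukocyte genes the count was 1 of 6 for lymphocytes, 2 of 2 for neutrophils, 1 of 10 for macrophages, 0 of 9 for the shared genes and 0 of 3 for MHC class II.

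The position of d/d 1 recurred across the leukocyte genes. It was the highest of the 3 d/d arrays for 21 of the 30 genes (70%), against 36.5% of all genes, and the lowest for 5, against 37.0% of all genes. This order was not particular to leukocyte genes. The endothelial, fat, stromal, smooth muscle and MHC class I lists also had d/d 1 as the highest d/d array, within lower d/d means. The stromal mean was 9.61, 9.29 and 9.36 on d/d 1, 2 and 3, and the smooth muscle mean 8.78, 8.18 and 8.44. For the epithelial list d/d 1 was instead the lowest d/d array. The mean of 7 endothelial genes was 6.35, 5.82 and 6.03 on d/d 1, 2 and 3, against 6.67, 6.56 and 6.62 on f/f 1, 2 and 3. The mean of 7 fat cell genes was 4.65, 3.78 and 4.02 on d/d 1, 2 and 3, against 5.03, 4.87 and 5.49 on f/f 1, 2 and 3.

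All 7 endothelial and all 7 fat genes had a lower mean in d/d and 0 passed, with medians of -0.63 and -1.16, while 5 and 6 of them had an unadjusted limma p under 0.05. The largest were Cdh5, a cadherin of endothelium, at -0.75, and Adipoq, the adiponectin gene, at -1.59 (limma adjusted p of 0.0865 and 0.112). Both passed without d/d 1 (-0.92 and -2.04, adjusted p of 0.00551 and 0.00255), where 5 of the 7 endothelial and 4 of the 7 fat genes passed as lower. In that fit 2.93% of all genes passed as lower. Of 8 stromal genes 1 fell, the surface glycoprotein gene Thy1 (-1.06 ± 0.13 SE, limma adjusted p = 0.0156), and the median was -0.34, with a lower mean for all 8. The call of Thy1 was lost when d/d 2 (0.0581), d/d 3 (0.0791), f/f 2 (0.0856) or f/f 3 (0.0747) was left out. The 4 smooth muscle genes had a median of -0.21 with 0 passed and 1 at an unadjusted p under 0.05. The part of these tissues in the values of the leukocyte genes was not tested.

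**Figure D4:**
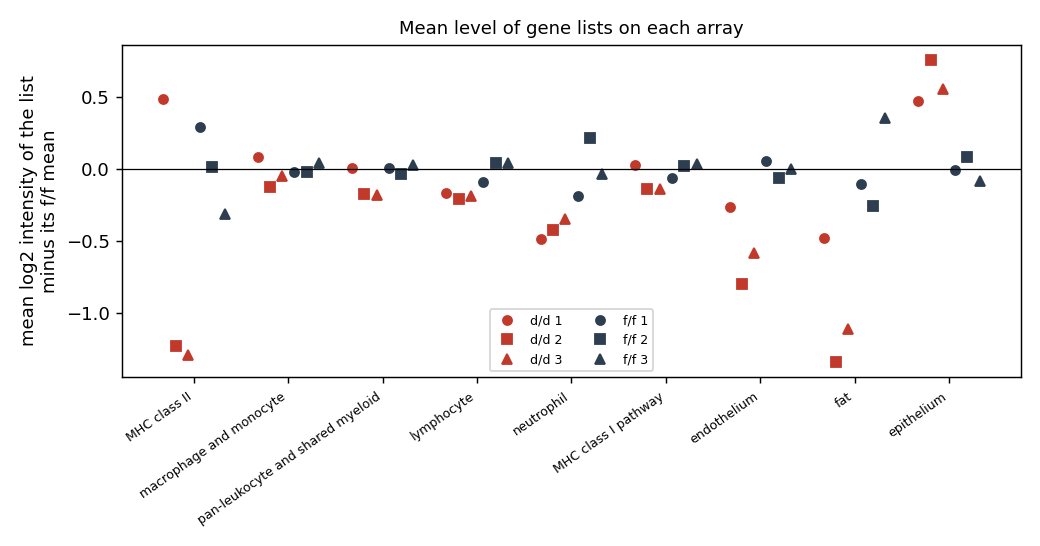
Mean log2 intensity of 9 gene lists on each array minus the list's mean over the f/f arrays, with d/d arrays in red left of f/f arrays in dark blue and a symbol for each replicate. The MHC class II list had d/d 1 above all f/f arrays and d/d 2 and d/d 3 far below them, while the macrophage, shared myeloid and MHC class I lists stayed near 0.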

How the data were processed

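Each array received cRNA prepared from 500 ng total RNA, per the labels' protocols. The deposited table holds 1 linear intensity per probe set and array, and RMA is named in the submitters' processing notes without version or settings. RMA compresses differences at the dim end. Array medians lay between 6.34 and 6.59. Log2 was taken with no added constant.

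The difference between genotypes was fitted by limma 3.58.1 under R 4.3.3 (no covariate, 4 residual and 3.66 prior degrees of freedom), with Benjamini-Hochberg adjustment over all 16813 genes, or all 41420 probe sets where stated. The labels do not say whether each array is a different animal; p-values reflect only array-to-array spread, possibly technical, and the number of arrays limits the precision. In a simulation over 16813 genes, 23 of 50 changed 1.5-fold and 42 of 50 changed 2-fold were recovered, with 9 false calls. It drew independent noise, shuffled the SDs between genes and only raised levels. Its counts therefore do not give the recovery for genes of wide spread, such as those of MHC class II.

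Members and lists were chosen with earlier results of these data known. The 14 other lists held 201 genes, of which 155 were measured. Genes named in full were members of smallest p in each role, with up to 3 genes of smallest p from each other list and those past the threshold. H2-DMa, H2-DMb2, Ciita, Apoe and Csf2rb were named after their values were seen. Of the 30 members, 21 had a RefSeq promoter. Alternatives were a replicate block, trend with robust variance, array weights, quantile normalization, median centring, no dim probe sets (lowest 40%), no _x_at probe sets, the mean of probe sets, arrays left out, and a threshold of 0.10.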

Additional observations from a re-analysis of the deposited data

How the results depend on the processing

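Of the 30 genes, 0 passed as lower in the main comparison, against 4 without both arrays numbered 1 and 0 to 3 with each array left out in turn, and 0 passed as higher, against 1 with array weights, with the mean of all probe sets or with a threshold of 0.10 (0 with each array left out). The median log2 difference of the 30 ran from -0.24 to -0.11. Over all genes 192 passed (106 higher, 86 lower in d/d), against 381 with array weights (194, 187), 540 without both arrays numbered 1 (221, 319), 403 at a threshold of 0.10 (198, 205) and 26 to 821 with each array left out (16 to 328, 10 to 493). Apart from the looser threshold, the cause was not tested. Arrays that share a replicate number were treated as unpaired, as the labels give no pairing. Their deviations from the group means correlated at 0.461, 0.0228 and 0.178 for numbers 1, 2 and 3. Whether the arrays numbered 1 share a source of variation was not tested. With the replicate block 457 genes passed (217 higher, 240 lower) and 574 probe sets, against 217, and none of the 30 genes passed (lowest adjusted p 0.0591, for Cd68). Of the other genes named, the block turned Kit (0.00573), Csf3 (0.0194), Cdh5 (0.0236), Krt18 (0.0310) and Krt8 (0.0318) into calls. Signs turned, with neither side past the threshold, for Adgre1 (-0.0124 with array weights, -0.028 without both arrays numbered 1, -0.0405 to 0.0488 with each array left out), Mrc1 (-0.0137, -0.0604, -0.0293 to 0.0591) and Cd8a (0.0182 with the mean of all probe sets). They also turned with 1 array left out for Itgb2 (-0.1388 to 0.0703), Ms4a1 (-0.1151 to 0.0683), Folr2 (-0.2058 to 0.0836), Tyrobp (-0.1799 to 0.0265) and Lyz2 (-0.0789 to 0.1557). Outside the 30 genes, signs turned for Rfxank (-0.0484) and Ciita (-0.0788) with the mean of all probe sets, and for Alas2 (0.0123) without f/f 1. Of the 30 genes, those with both means below 2.69 (Itgam, S100a8, S100a9, Ms4a1) are limited by background. The same holds for Elane, Mmp8, Hba-a1, Ciita and Clec10a from the other lists.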
